A study of Mus musculus and Rattus norvegicus with 28 samples.

Results

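The 6 actin genes Actc1, Acta1, Acta2, Actg2, Actb and Actg1 were followed through the perinatal period in mouse ventricular cardiomyocytes and in cultured neonatal rat ventricular cardiomyocytes (NRVCs) given an inhibitor of histone deacetylases. They were taken by gene name, as 6 of 55450 annotated mouse genes and 6 of 32623 annotated rat genes, and each had a value in every RNA-seq library. In the mouse, left ventricular cells of wild-type C57BL/6 animals of both sexes were dissociated before birth at E18.5 (embryonic day) and after birth at P1, P3 and P7 (postnatal days), and used without culture after a pre-plating step that discards cells attaching early. RNA-seq and ATAC-seq, which reads chromatin accessibility, each had 2 libraries per time point. In the rat, ventricular cells of P1 Sprague Dawley pups of both sexes were plated and treated a day later with 100 nM trichostatin A (TSA), or with the DMSO vehicle as the control group, with 3 RNA-seq libraries per group. No group carried a genetic change. The paper describes its replicates as biological, but the labels do not tie libraries to separate litters or cultures. The p-values therefore measure the spread between these libraries, part of which may be technical.

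Actin is the globular protein that polymerises into filaments. Vertebrates encode 6 near-identical forms in separate genes. Actc1 encodes the cardiac alpha-actin and Acta1 the skeletal alpha-actin of the sarcomeric thin filament, on which myosin pulls. Acta2 and Actg2 encode the vascular and enteric smooth muscle forms, and Actb and Actg1 the cytoplasmic beta and gamma forms found in the cortex and stress fibres of nearly all cell types. Fetal cardiomyocytes are known to make skeletal and smooth muscle actins besides the cardiac form. Serum response factor (SRF), acting with myocardin or with the actin-sensing MRTF cofactors, is the best-known activator of actin genes and binds the CArG box, 2 C and 2 G bases around a core of A and T.

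RNA levels are given as FPKM, the number of sequenced fragments scaled to transcript length and to library depth, summed over a gene's annotated transcripts. This unit is corrected for length, so levels of different actins can be set side by side within a library. Depth, estimated from coverage, was 29.3 to 37.5 M aligned reads per library in the mouse and 28.2 to 38.5 M in the rat. Differences were taken on log2(FPKM + 1), which understates the change of low genes, and fitted with limma. A gene was called when its p, adjusted over all tested genes by Benjamini-Hochberg, was under 0.05 and its log2 difference was over 1 in size. In the mouse, the summed FPKM of 10 cardiomyocyte markers lay between 20607 and 25430 at E18.5 and between 622 and 1535 at P7, and all 10 were called lower, as were 12.3% of all tested genes. The sum of 8 fibroblast markers lay between 432 and 442 at E18.5 and between 2907 and 3628 at P7, with all 8 called higher, as were 15.4% of all tested genes. The 5 erythroid markers summed to 29043 to 35390 at E18.5 and to 4.68 to 41.0 afterwards. Cardiomyocyte markers were thus present at every time point, but at P7 their sum was below that of the fibroblast markers. Whether a gene's level followed a change in the mix of cells or in RNA per cell cannot be told apart in bulk libraries, and this holds for every mouse result that follows. Of 9 skeletal muscle markers 7 were present in the mouse files, and they summed to 1.42 to 7.14, with the highest sums at E18.5. In the rat, replicate 3 of both groups stood apart. Its levels had Spearman correlations with replicates 1 and 2 of 0.951 to 0.956 in the control group and 0.965 with TSA. Between replicates 1 and 2 the values were 0.985 and 0.986. The rat differences of the members, their ratios and the counts of the pathway lists are given with and without the replicate 3 libraries.

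The sequences shown first are stretches with matches to the CArG box. They are the bases upstream of the sarcomeric actin genes and the CArG boxes of Acta2 and Actg1. Promoter sequences came from RefSeq (GRCm38.p6), which held 4 of the 6 members, Acta1, Acta2, Actc1 and Actg1. All are on the minus strand and are printed 5′ to 3′ in the direction of transcription. Capitals mark CArG boxes, exact or with 1 mismatch in the core, and the TATAAA element. The upstream region of Acta1 covers chr8:123894776-123895025 and that of Actc1 chr2:114052888-114053125.
Acta1: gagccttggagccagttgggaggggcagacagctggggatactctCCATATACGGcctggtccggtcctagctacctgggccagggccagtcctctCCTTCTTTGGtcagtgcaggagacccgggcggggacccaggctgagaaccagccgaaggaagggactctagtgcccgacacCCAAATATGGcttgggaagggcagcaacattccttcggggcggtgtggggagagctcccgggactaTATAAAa
Actc1: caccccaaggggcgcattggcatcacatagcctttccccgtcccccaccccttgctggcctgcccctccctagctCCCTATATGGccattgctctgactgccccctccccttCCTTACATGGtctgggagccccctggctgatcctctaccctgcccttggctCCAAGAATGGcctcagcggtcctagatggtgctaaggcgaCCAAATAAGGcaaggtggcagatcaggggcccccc

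In Acta1 the exact CArG box lay at -73 to -64 from the RefSeq start, and boxes with 1 mismatch lay at -205 to -196 and -154 to -145. In Actc1 the exact box lay at -47 to -38, followed upstream by boxes with 1 mismatch at -87 to -78, -138 to -129 and -175 to -166. The boxes of Acta2, at chr19:34255438-34255467 and chr19:34255388-34255417, and of Actg1, at chr11:120348566-120348595, are printed with 10 bases on each side.
Acta2 distal: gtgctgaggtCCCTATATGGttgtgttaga
Acta2 proximal: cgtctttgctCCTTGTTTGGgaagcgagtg
Actg1: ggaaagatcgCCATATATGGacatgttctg

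Exact CArG boxes were thus found in 3 of the 4 promoters, Actc1, Acta1 and Actg1, and Acta2 held only boxes with 1 mismatch, at -84 to -75 and -34 to -25. Of 32544 promoter windows of the same 300 bases, 1.64% held an exact box and 8.46% a box with 1 mismatch, searched on both strands. Further motifs separated the members. TATAAA (13.6% of all windows) was found in Acta1 at -7 to -2 and in Actc1 at 33 to 38, outside the stretch printed for Actc1, the M-CAT sequence CATTCC (14.6%) in Acta1 and Acta2, and the SP1 sequence GGGCGG (35.9%) in Acta1 and Actg1. The MEF2 motif, present in 3.16% of windows, was in none of the 4. None of these matches overlapped a CArG box. Actg1 stood out by base composition, with 79.2% G and C and 43 CpG dinucleotides in the 250 bases before its start, against a median of 52.4% over all promoters. A match describes these letters only and is neither a binding site nor a cause.

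The protein-coding parts were compared because reads from such similar genes could be shared between them. The first 90 coding bases of 3 muscle actins are printed, with capitals where Acta1 or Acta2 differs from Actc1, followed by those of the cytoplasmic pair, with capitals where Actg1 differs from Actb. They come from the GENCODE M21 transcripts.
Actc1: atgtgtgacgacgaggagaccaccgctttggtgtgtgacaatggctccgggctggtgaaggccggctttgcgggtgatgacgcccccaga
Acta1: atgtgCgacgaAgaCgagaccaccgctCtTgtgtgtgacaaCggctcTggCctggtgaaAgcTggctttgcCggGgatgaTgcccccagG
Acta2: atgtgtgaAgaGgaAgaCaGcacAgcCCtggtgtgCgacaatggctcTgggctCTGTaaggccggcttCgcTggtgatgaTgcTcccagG
Actb: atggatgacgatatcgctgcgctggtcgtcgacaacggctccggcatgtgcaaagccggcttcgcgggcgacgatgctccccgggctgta
Actg1: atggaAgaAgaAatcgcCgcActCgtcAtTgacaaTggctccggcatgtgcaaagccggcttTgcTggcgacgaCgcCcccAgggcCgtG

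Over these bases Acta1 differed from Actc1 at 14 positions, Acta2 from Actc1 at 19 and Actg1 from Actb at 16. Over the full coding sequence, identity between members ran from 81.7% (Acta2 with Actg1) to 88.6% (Actb with Actg1), and it was 86.3% for Actc1 with Acta1. No window of 150 bases, the read length, in the main transcript of Actc1, Acta1, Acta2, Actg2 or Actb occurred exactly in another annotated gene. Actg1 differed, since 43.5% of its windows did, 39.3% in the processed copy Gm12715, which was listed at 51.7 to 196 FPKM, or 19.1 to 27.3% of Actg1 in the same library. The level of Actg1 is therefore uncertain to the extent that reads were split with this copy. With shorter windows of 50 bases, 56.7% of those of Actg1 and 14.2% of those of Actb occurred in another gene. The shares were 2.22% for Acta1, 0.35% for Acta2 and 0 for Actc1 and Actg2.

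Cardiac actin, Actc1 (ENSMUSG00000068614.7, main transcript chr2:114047282-114052887 on mm10, minus strand), was the most abundant actin of the late fetal heart cells and declined to a small share of that level by P7. It was listed at 5864 and 8565 FPKM (E18.5), 3095 and 5347 (P1), 1843 and 1753 (P3), and 457 and 217 (P7). By rank among all genes it stood at 12 and 8 (E18.5), 11 and 5 (P1), 18 in both P3 libraries, and 151 and 294 (P7). The libraries of P3 lay below all E18.5 and P1 libraries, and those of P7 below all others. Of all tested genes, 28.4% were lower without overlap at P3 than at E18.5 and 20.1% than at P1. At P7 the shares were 32.7% against E18.5, 31.8% against P1 and 31.7% against P3. From E18.5 to P7 it fell by 4.49 on the log2 scale (SE 0.38, 22.4-fold lower, adjusted p = 4.64e-05, limma with Benjamini-Hochberg adjustment over 13979 genes).

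Most of the cardiac actin decline came after P1. The log2 difference of P1 from E18.5 was -0.80 (SE 0.38, adjusted p = 0.124, limma), which did not pass the test. It ran from -1.20 without P1 replicate 2 to -0.41 without P1 replicate 1. P3 was called lower than E18.5, by a log2 difference of -1.98 (adjusted p = 0.00339). P7 was called lower than P1 (-3.69, adjusted p = 0.00103) and lower than P3 (-2.51, adjusted p = 0.0129), all in limma. The last call was lost when either P3 library or P7 replicate 2 was left out, with adjusted p-values of 0.0850, 0.0690 and 0.0590, while the difference stayed at -2.54 to -1.97.

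Skeletal actin, Acta1 (ENSMUSG00000031972.5, main transcript chr8:123891769-123894751, minus strand), had a low level at E18.5 and a lower one from P1 on. It was listed at 36.9 and 50.7 FPKM (E18.5), 4.14 and 5.01 (P1), 3.01 and 3.99 (P3), and 1.33 and 0.520 (P7). The change from E18.5 to P1 was -2.99 on the log2 scale (SE 0.25, adjusted p = 0.000141, limma), the one member called lower at that step. By P7 it fell by 4.56 (SE 0.25, 23.5-fold lower, adjusted p = 1.02e-05). From P1 to P7 it fell by 1.56 (adjusted p = 0.00452, limma), over levels near 1 FPKM at the end. On this scale, which understates the change of low genes, the sarcomeric pair had similar total drops by P7 and a different timing. The Acta1 to Actc1 ratio of FPKM, taken without the added 1, was 2.31-fold lower at P7 than at E18.5. The Acta1 to Actc1 ratio, as a log2 value, went from -7.36 at E18.5 (SD 0.06, n = 2) to -9.80 at P1 (SD 0.36), -9.02 at P3 (SD 0.34) and -8.57 at P7 (SD 0.20). It differed between time points in an exact permutation test over all assignments of the 8 libraries to time points, with p = 0.00952, the smallest p that this design allows, and p = 0.0127 after adjustment over 4 ratios.

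**Figure D1:**
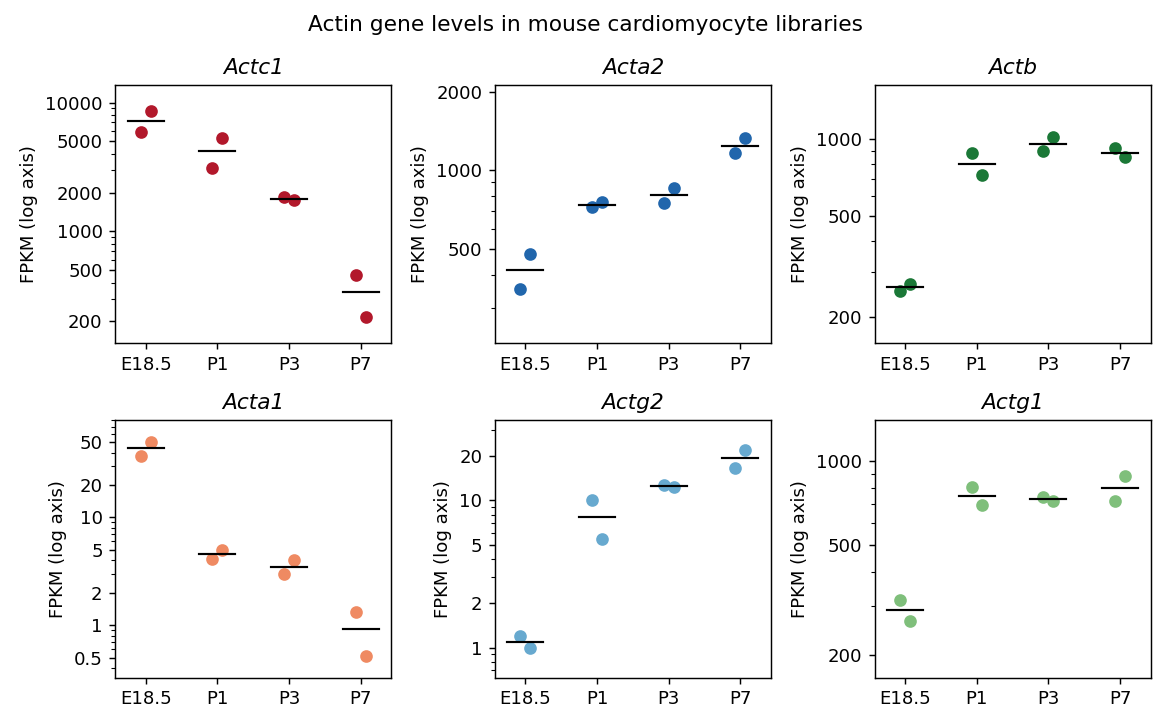
FPKM of each of the 6 actin genes on a log axis in the 2 mouse RNA-seq libraries of each time point, with a point for each library and a bar at the mean. Actc1 and Acta1 go down from E18.5 to P7, while the other 4 members are at their lowest at E18.5.

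Smooth muscle alpha-actin, Acta2 (ENSMUSG00000035783.9, main transcript chr19:34241090-34255590, minus strand), was called higher at P7 than at E18.5 and was the most abundant actin at P7. It was listed at 352 and 480 FPKM (E18.5), 723 and 755 (P1), 754 and 861 (P3), and 1161 and 1326 (P7). Only the P1 and P3 libraries overlapped, between 754 and 755 FPKM, and every other pair of time points was separate. Of all tested genes, 43.5% (P1), 46.3% (P3) and 45.6% (P7) were higher than at E18.5 without overlap. At P7 30.9% were so against P1 and 24.6% against P3. P7 was called higher than E18.5 by 1.59 on the log2 scale (SE 0.17, 3.01-fold, adjusted p = 0.000140, limma). The differences from E18.5 at P1 (0.84, adjusted p = 0.00569) and P3 (0.97, adjusted p = 0.00230) passed the adjusted p but not the fold threshold. From P1 to P7 the difference was 0.75 (adjusted p = 0.0189, limma), again under the fold threshold.

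Enteric smooth muscle gamma-actin, Actg2 (ENSMUSG00000059430.14, main transcript chr6:83512905-83536265, minus strand), was near the detection filter before birth and had the largest relative rise of the 6. It was listed at 1.19 and 1.00 FPKM (E18.5), 10.03 and 5.45 (P1), 12.6 and 12.2 (P3), and 16.7 and 22.0 (P7). The rise was called at P1 (2.01, SE 0.26, adjusted p = 0.000751), P3 (2.68, adjusted p = 0.000145) and P7 (3.27, SE 0.26, 9.62-fold, adjusted p = 3.54e-05) against E18.5 in limma. P7 was also called higher than P1, by 1.26 (adjusted p = 0.0117, limma). That call was lost without P1 replicate 2 (0.87, adjusted p = 0.0501) and without P7 replicate 2 (1.07, adjusted p = 0.0952). Even at P7 its level stayed far below that of Acta2.

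The cytoplasmic actins rose between E18.5 and P1 and were not called different between later time points. Actb (ENSMUSG00000029580.14, main transcript chr5:142903115-142906754, minus strand) was listed at 254 and 270 FPKM (E18.5), 878 and 722 (P1), 897 and 1019 (P3), and 921 and 849 (P7). Actg1 (ENSMUSG00000062825.15, main transcript chr11:120345690-120348542, minus strand) was listed at 317 and 265 FPKM (E18.5), 806 and 697 (P1), 744 and 719 (P3), and 717 and 883 (P7). In both genes the E18.5 libraries lay below all postnatal ones. Such a separation was common, since 43.5% (P1), 46.3% (P3) and 45.6% (P7) of all tested genes were higher than at E18.5 without overlap. The postnatal time points of Actg1 overlapped, and those of Actb did so except P1 and P3.

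Actb rose by 1.60 from E18.5 to P1 (SE 0.14, adjusted p = 0.000174, limma) and stood 1.75 above E18.5 at P7 (SE 0.14, 3.37-fold, adjusted p = 3.92e-05). Actg1 rose by 1.37 from E18.5 to P1 (SE 0.15, adjusted p = 0.000453, limma) and stood 1.45 above at P7 (SE 0.15, 2.74-fold, adjusted p = 0.000136). From P1 to P7 the log2 differences were 0.15 for Actb and 0.09 for Actg1, with adjusted p-values of 0.534 and 0.765 in limma. The Actb to Actg1 ratio did not pass the test, with log2 means of -0.15 at E18.5 and 0.15 at P7 (exact permutation test, p = 0.248). Both genes are commonly used as loading controls, and here each differed by more than 2-fold between fetal and neonatal libraries on the FPKM scale.

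Within the cytoplasmic genes the shares of some annotated transcripts differed between libraries. The main Actb transcript (1920 bases) held 71.0% and 26.2% of the gene's FPKM (E18.5), 89.1% and 86.5% (P1), 90.5% and 90.3% (P3), and 92.4% and 94.0% (P7). The low value at E18.5 belonged to replicate 2, in which the shorter transcript ENSMUST00000167721.7 was listed at 53.8% of the gene, against 0.242 to 0.342% in all other libraries. For Actg1, transcripts annotated as retaining an intron held 26.1% and 26.3% of the gene (E18.5), 16.3% and 16.1% (P1), 10.05% and 14.6% (P3), and 11.6% and 10.5% (P7). The E18.5 libraries were the highest in that share. The main transcripts of Actc1, Acta1 and Acta2 held at least 98.39% of their gene in every mouse library, and their changes were of level rather than of annotated transcript.

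Counted over the comparisons, 4 of the 6 members were called between P1 and E18.5 (16.2% of all 13979 tested genes were called there), 3 higher and 1 lower (10.1% and 6.06%). Between P3 and E18.5, 5 of 6 were called (21.9% of all genes), 3 higher and 2 lower (13.0% and 8.88%). Between P7 and E18.5 all 6 were called (27.7%), 4 higher and 2 lower (15.4% and 12.3%). The median log2 difference at P7 against E18.5 was 1.52 over the members and 0.14 over all genes. P3 against P1 gave 0 of 6 in limma (0.0143% of all genes) and 0 called by limma-voom. There 2 members, Actc1 and Actg2, had an unadjusted p under 0.05 in limma, as had 11.3% of all genes. P7 against P1 gave 3 of 6 (8.91%), with Actg2 higher (3.45%) and Actc1 and Acta1 lower (5.46%). P7 against P3 gave 2 of 6 (3.55%), Actc1 and Acta1, both lower (2.20%). The call of Acta1 in the last comparison (-1.25, adjusted p = 0.0316, limma) was lost when either P3 library or P7 replicate 2 was left out, as for Actc1. The 3 comparisons with E18.5 share its libraries and are not independent of each other.

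The order of the 6 levels differed between time points, and Actc1 lost the leading place only at P7. At E18.5 it ran from Actc1 through Acta2, then Actg1 and Actb, whose libraries overlapped, to Acta1 and last Actg2. At P1 and P3 Actc1 was still first, with Acta2, Actb and Actg1 close together behind it, and Actg2 had passed Acta1. At P7 Acta2 was first, Actb and Actg1 overlapped in the next place, Actc1 had dropped to the fourth place, and Acta1 was last. Expressed as shares of the summed actin FPKM, the sarcomeric pair held 86.5% and 89.4% (E18.5), 56.2% and 71.1% (P1), 43.4% and 40.2% (P3), and 13.99% and 6.61% (P7). The smooth muscle pair went from 5.17% and 4.995% at E18.5 to 36.0% and 40.9% at P7, and the cytoplasmic pair from 8.36% and 5.56% to 50.03% and 52.5%. The sum over all 6 genes was 6824 and 9632 FPKM at E18.5 and 3274 and 3297 at P7, so the total also shrank. As a log2 ratio the cytoplasmic to sarcomeric balance rose by 6.10 from E18.5 to P7 (68.8-fold) and the smooth muscle to sarcomeric balance by 6.11 (69.0-fold). Each differed between time points with p = 0.00952 in the exact permutation test, the smallest p possible, and p = 0.0127 after adjustment over 4 ratios.

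**Figure D2:**
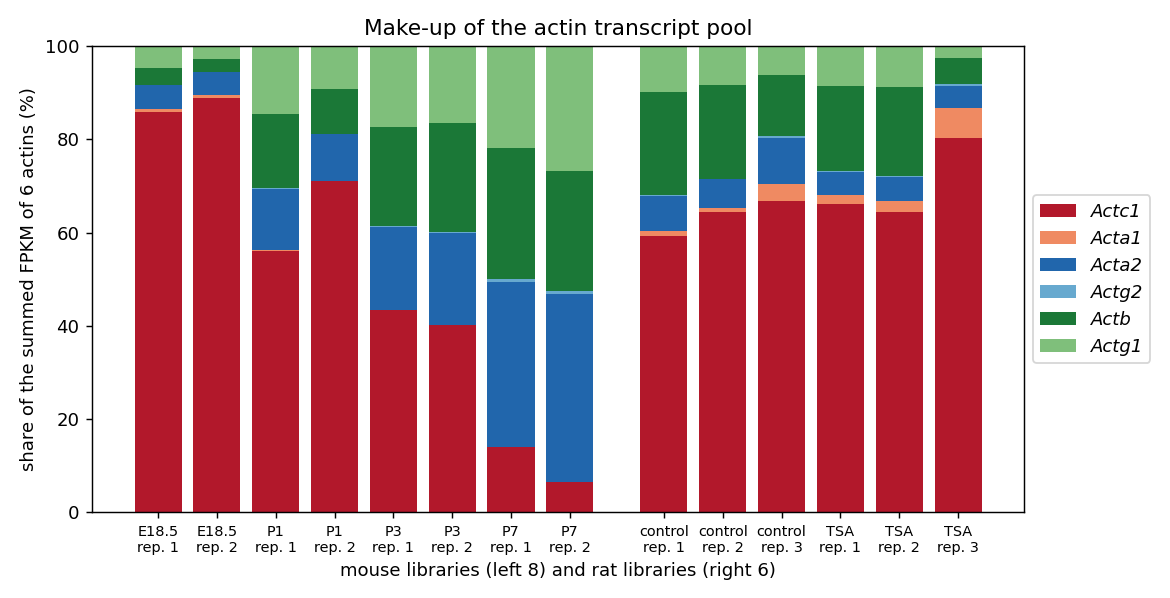
Stacked bars of the percentage of summed actin FPKM held by each of the 6 genes in every mouse and rat RNA-seq library. The sarcomeric share goes from 86.5% and 89.4% in the E18.5 libraries to 13.99% and 6.61% in the P7 libraries, and in rat culture it lies between 60.2% and 86.6%.

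The cardiomyocyte marker sum was lower at P7, as Actc1 was, and the fibroblast marker sum higher, as Acta2 was. The part of cell types in the result was not tested. The 5 endothelial markers summed to 141 to 267 FPKM at E18.5 and 203 to 241 at P7. The 5 macrophage markers summed to 32.3 to 36.2 FPKM at E18.5 and 32.7 to 34.5 at P7, so both sums overlapped between these time points. Actc1 divided by the summed FPKM of the 10 cardiomyocyte markers was 0.285 and 0.337 (E18.5), 0.343 and 0.370 (P1), 0.290 and 0.325 (P3), and 0.298 and 0.350 (P7). The E18.5 and P7 values of this ratio overlapped, but the single markers went different ways. Against 4 of the 10 markers the ratio was higher in both P7 libraries than in both E18.5 ones, against 5 it was lower, and against 1 it overlapped. Over Ckm, the muscle creatine kinase, it went from 4.82 and 5.47 to 66.3 and 145, and over the ventricular light chain Myl2 from 1.11 and 1.25 to 2.31 and 2.75. Over the cardiac troponin T gene Tnnt2 it went from 0.955 and 1.19 to 0.643 and 0.659. Acta2 divided by the sum of the 8 fibroblast markers was 0.796 and 1.11 (E18.5), 0.632 and 0.548 (P1), 0.489 and 0.557 (P3), and 0.400 and 0.365 (P7). Actb divided by the same sum was 0.575 and 0.625 (E18.5), 0.768 and 0.524 (P1), 0.582 and 0.660 (P3), and 0.317 and 0.234 (P7). Both ratios to this sum were lower at P7 than at E18.5, and ratios to single fibroblast markers were not taken. The 6 pericyte and smooth muscle markers summed to 37.6 to 46.8 FPKM at E18.5 and 88.8 to 107 at P7, but they went both ways, since Pdgfrb and Notch3 were called higher and Cspg4 and Abcc9 lower. Pdgfrb made up most of the P7 sum, at 4.92 and 3.15 FPKM before birth and 65.3 and 81.9 at P7. The defining skeletal muscle genes Myod1 and Myog were at 0 in every postnatal library and at most 0.18 FPKM at E18.5. The 7 skeletal muscle markers in the files summed to 3.83 to 7.14 FPKM at E18.5. Later sums were 2.09 to 3.22 (P1), 2.39 to 3.75 (P3) and 1.42 to 1.96 (P7). This sum, like Acta1, was highest at E18.5, and the part of skeletal muscle cells was not tested.

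**Figure D3:**
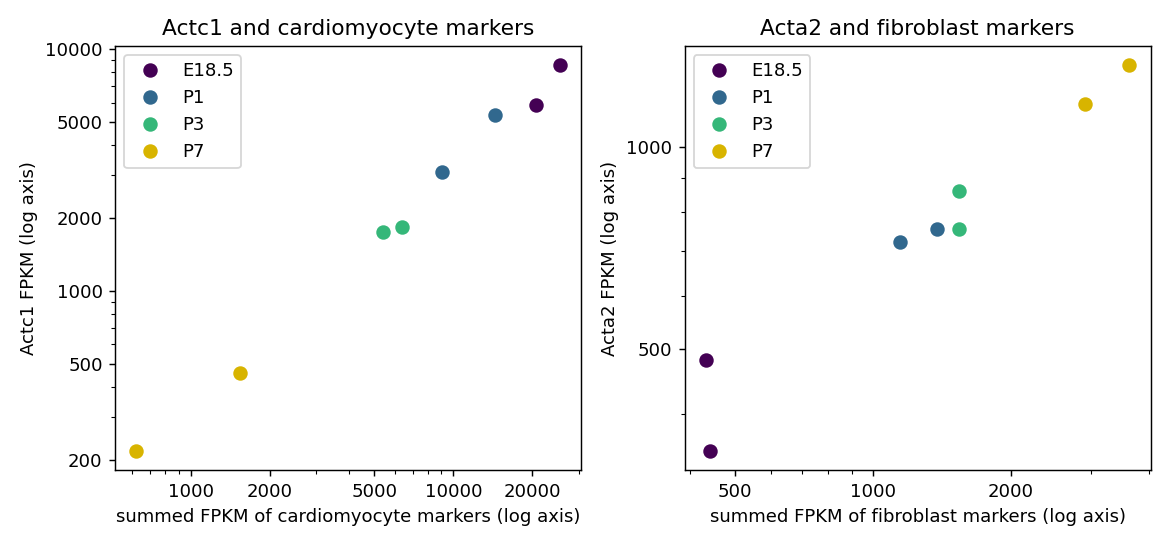
Actc1 FPKM against the summed FPKM of 10 cardiomyocyte markers (left) and Acta2 FPKM against that of 8 fibroblast markers (right), with a point for each mouse RNA-seq library coloured by time point and all axes logarithmic. Actc1 and the cardiomyocyte sum go down together to the P7 libraries, while Acta2 and the fibroblast sum are highest at P7.

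Genes that act on actin filaments differed by list in how many were called between P7 and E18.5. In the list of thin filament end and assembly factors, 8 of 12 tested genes were called lower at P7 than at E18.5 and none higher (median -3.13, against 0.14 over all genes, of which 27.7% were called). They included Actn2, the Z-disc cross-linker of thin filaments (-4.69), Xirp1 (-4.52), the myofibril assembly protein Nrap (-4.38), the pointed-end cap Tmod1 (-4.29) and the filament nucleators Lmod3 (-4.20) and Lmod2 (-3.02). Actn2 was listed at 542 and 752 FPKM at E18.5 and at 38.6 and 14.6 at P7. The barbed-end capping subunits, which serve all actin filaments, were not called, with log2 differences of 0.59 for Capza1, 0.09 for Capza2 and 0.72 for Capzb.

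Factors of monomer binding and turnover went in both directions, with 4 of 13 called higher and 2 lower, where 15.4% of all genes were called higher and 12.3% lower. The higher genes were the monomer recycler Cap1 (2.05), the filament-severing cofilin Cfl1 (1.40), profilin Pfn1 (1.26) and twinfilin Twf1 (1.23). The lower genes were Cap2, the striated muscle relative of Cap1 (-3.00), and destrin, Dstn (-1.22). Of 11 nucleation genes 2 were called, Diaph3 (1.74) and the Arp2/3 subunit Arpc1b (1.64), both higher. Of 10 genes for actin folding and modification only Cct6a, a subunit of the chaperonin that folds actin, was called (1.00). In both lists the share called lay below the 27.7% of all genes.

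The SRF axis, through which actin genes are switched on, held 4 lower and 1 higher of 8 tested genes (12.3% and 15.4% of all genes). Hopx, a cofactor that restrains SRF, fell by 4.39, the MRTF-promoting actin binder Abra fell by 3.31, the cardiac and smooth muscle coactivator Myocd by 1.95 and Fhl2 by 1.93. Mrtfa rose by 1.22, from 5.10 and 3.93 FPKM at E18.5 to 11.7 and 11.8 at P7. Srf itself was listed at 40.8 and 52.1 FPKM at E18.5 and at 29.1 and 25.6 at P7, a difference of -0.73 that passed the adjusted p (0.00325, limma) but not the fold threshold. Contractile genes of smooth muscle were 5 higher and 2 lower of 9, beside the same shares of all genes. Tagln, the actin-binding transgelin, rose by 4.55, from 15.5 and 18.9 FPKM to 411 and 436, with Lmod1 (2.56), Cald1 (2.36), Mylk (1.93) and Myh11 (1.59) also higher. Myl9 (-1.80) and calponin, Cnn1 (-1.41), were called lower, so this list did not move as a block with Acta2.

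Across the 8 mouse libraries each member had different closest genes by Pearson's r of log2(FPKM + 1), searched over 8940 genes and given as a description. For Actc1 they were Actn2, Srl, Afg3l2, Eno3 and Unc45b (r from 0.998 to 0.999), and for Acta1 Hadha, Acaa2, Chchd7, Aars2 and Mrps9 (0.995 to 0.999). For Acta2 they were Metrn, Rbms2, Rmdn3, Sec61g and Hic1 (0.987 to 0.994), and for Actg2 Mpp1, Tmem123, Gng10, Kctd17 and Gpx8 (0.997 to 0.999). For Actb they were Ttll12, Scarf2, Raet1d, Mre11a and Topbp1 (0.996 to 0.998), and for Actg1 Stk3, Ptrh2, Washc4, Efl1 and Fut8 (0.994 to 0.996). Such values are common in these libraries, since 179 (Acta2) to 1053 (Actb) genes exceeded an r of 0.95 with a member. Among the members themselves, Actb and Actg1 were the most alike (0.963), Acta2 and Actg2 had 0.930, Actc1 and Acta1 0.850, and Acta1 and Actg2 were the most opposed (-0.982). The 8 points are pairs of libraries at 4 time points and share the change in cell markers.

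Chromatin accessibility was read from the peak lists of 8 ATAC-seq libraries, called separately in each. The lists differ greatly in length, with 13149 and 14910 peaks (E18.5), 29281 and 19753 (P1), 95257 and 52040 (P3), and 49113 and 35898 (P7). Presence of a peak within 2.5 kb of an annotated start is therefore given as a description with no test. Of the 48 pairs of member and library, 26 had a peak. By library, 3 of 6 members had a peak in each E18.5 list, where 67.1% and 62.4% of all tested genes did, 4 in each P1 list (69.2% and 43.0%), 3 in each P3 list (91.7% and 87.7%), and 2 and 4 in the P7 lists (86.5% and 85.5%).

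Actc1 and Acta2 differed in the lists that held a peak at their starts, and shared both P1 lists and P7 replicate 2. Actc1 had a peak covering its start in both E18.5 lists, both P1 lists and P7 replicate 2, and none in either P3 list although these are the longest. The fold enrichment of these peaks over background was 4.03 and 4.97 (E18.5), 5.75 and 3.71 (P1), and 3.74 (P7), with summits between -77 and 16 bases from the start. The P1 replicate 1 peak, chr2:114052748-114053251, takes in the exact CArG box printed for Actc1. Acta2 had no peak within the window in the E18.5 lists and one covering its start in all 6 postnatal lists. Its fold enrichment was 6.65 and 4.29 (P1), 6.68 and 9.68 (P3), and 7.18 and 4.70 (P7), with -log10 q values of 8.80 and 3.30, 34.9 and 40.1, and 25.8 and 8.37. The summits lay 31 to 205 bases downstream of the GENCODE start, from which peak positions are counted. The RefSeq start of Acta2, from which its boxes were counted above, lies 217 bases further downstream, so that the boxes stand 133 to 142 and 183 to 192 bases downstream of the GENCODE start, and the P3 replicate 2 peak, chr19:34255097-34255892, covers both CArG boxes printed for Acta2. When each list was cut to its 13149 strongest peaks, Acta2 kept peaks in 5 of the 6 postnatal lists and had none at E18.5, and Actc1 kept 3, both at E18.5 and P1 replicate 1. At a -log10 q of at least 5 Acta2 kept 5, all but P1 replicate 2, and Actc1 kept 3, namely E18.5 replicate 2, P1 replicate 1 and P7 replicate 2.

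The cytoplasmic genes had peaks in most lists. Actb had peaks in 6 lists, all but P1 replicate 2 and P7 replicate 1. Those covering its start had a fold enrichment of 4.19 and 3.69 at E18.5, 2.51 and 3.06 at P3, and 2.54 at P7 replicate 2, and the P1 replicate 1 peak had its summit 235 bases inside the gene. Peaks with summits 4597 to 5121 bases downstream of the main start, within 2.5 kb of another annotated Actb start, were found in 4 lists. When each list was cut to its 13149 strongest peaks, Actb kept peaks in the 2 E18.5 lists only. At a -log10 q of at least 5 it kept 4 lists, E18.5 replicate 1, both P3 lists and P7 replicate 2. Actg1 was the one member with a peak in all 8 lists, and in each of them it lay upstream, with summits from -1953 to -1752 and a fold enrichment of 3.39 to 6.20. In 3 lists a further peak had its summit 4307 to 4421 bases downstream. Actg1 kept peaks in 7 lists under each of these cuts. An example of the upstream peaks is the P1 replicate 1 peak at chr11:120350261-120350575. No list had a peak within 1 kb of an annotated Actg1 start, and so none reached its CArG box, which lies at -90 to -81 from the RefSeq start and at -43 to -34 from the GENCODE start. The divergent noncoding gene 0610009L18Rik starts 136 bases upstream of Actg1, at -136, so its start too lies outside these peaks.

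Acta1 and Actg2, the least abundant members, were nearly without peaks. Acta1 had none in any list, and 1 of 8 lists (P3 replicate 1) had one within 5 kb. Actg2 had a single peak, in P1 replicate 2, with a summit 978 bases inside the gene in an intron and a fold enrichment of 4.28. The absence of a peak means that no region was called at that depth, not that the chromatin was closed.

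**Figure D4:**
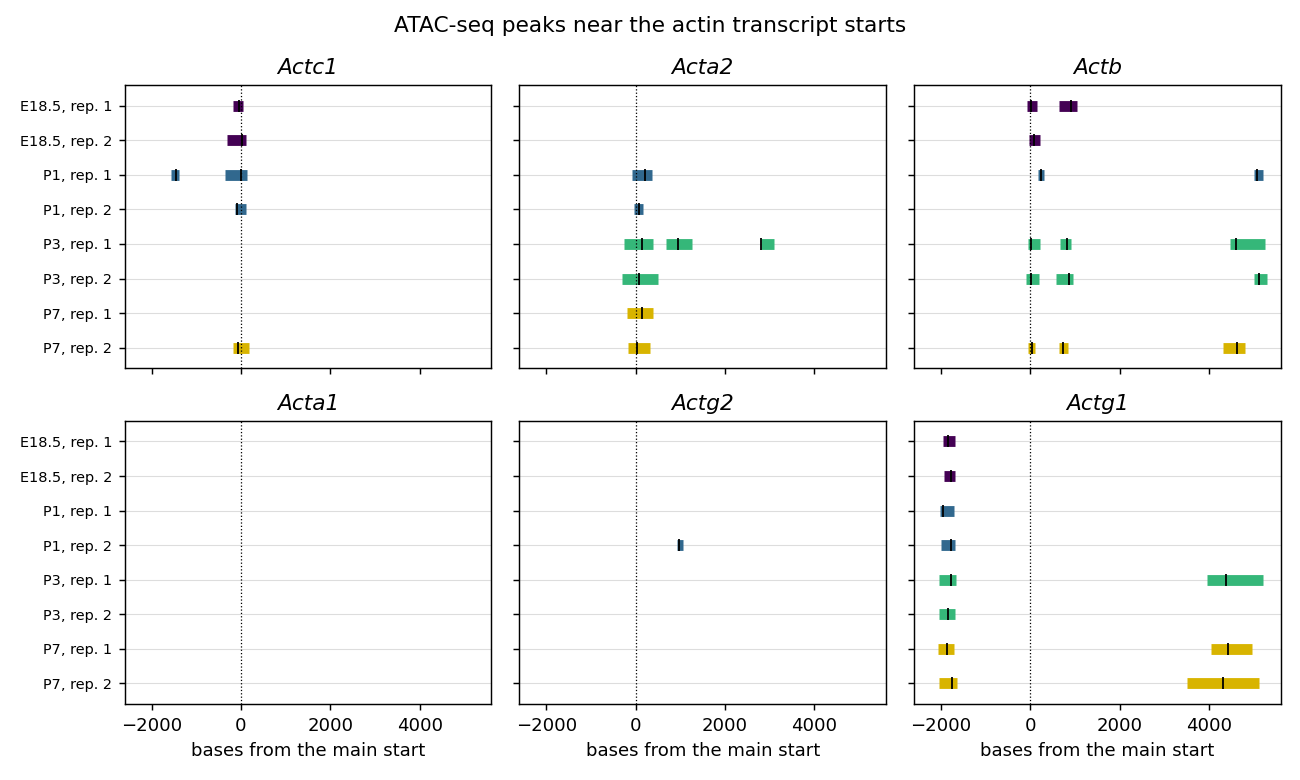
Position of ATAC-seq peaks around the main start of each actin gene (distance in bases, transcription to the right) in the 8 peak lists, with bars for peak extent. Acta2 has a peak at its start in the 6 postnatal lists and in no E18.5 list, Actc1 in 5 lists, and Actg1 has upstream peaks in all 8.

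In cultured rat cardiomyocytes the question was how TSA changed the same genes. Cardiac actin was again the leading member, ranking 2 of all genes in every library except TSA replicate 3, where it ranked 1. It was listed at 3542, 4254 and 7219 FPKM in control replicates 1 to 3 and at 3783, 3327 and 11679 with TSA. The groups overlapped, and the log2 difference was 0.14 (SE 0.51, adjusted p = 0.913, limma over 13625 genes). Without both replicate 3 libraries it was -0.13 (adjusted p = 0.467). The cells were not all cardiomyocytes, since 7 fibroblast markers summed to 6383 to 6930 FPKM in the control group and 3565 to 5965 with TSA, beside 7109 to 7649 and 6573 to 9135 for 9 cardiomyocyte markers, and no gene of either list was called. Rat and mouse values were normalised separately and are not compared by a test.

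Skeletal actin was the one member higher with TSA in every same-numbered pair of libraries. Acta1 was listed at 59.5, 63.2 and 389 FPKM in the control group and at 110, 115 and 923 with TSA. The spread between replicate 3 and the others was wider than the difference between groups, but within each number TSA was higher, by 1.84-, 1.83- and 2.37-fold. Of all rat genes, 28.9% were higher in every pair. The log2 difference was 0.99 (SE 1.03, adjusted p = 0.657, limma). With the replicate number as a block the same difference had an SE of 0.11 and an adjusted p of 0.0267 (limma). The labels do not pair libraries by number, so this block is an assumption. Without both replicate 3 libraries the difference was 0.87 (adjusted p = 0.00213, limma). Both values were under the fold threshold.

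The smooth muscle actins were lower with TSA within each number, as were the cytoplasmic actins (4 of 6 members in all, and 21.5% of all genes). Acta2 was listed at 449, 404 and 1070 FPKM in the control group and at 286, 271 and 711 with TSA, or 0.637, 0.671 and 0.665 of the control. Actg2 was listed at 15.3, 13.2 and 41.2 FPKM in the control group and at 4.94, 7.61 and 36.8 with TSA. Acta2 differed by -0.60 (SE 0.49, adjusted p = 0.559, limma) and with the replicate block by the same amount with an SE of 0.09 and an adjusted p of 0.0362, under the fold threshold. Without both replicate 3 libraries it was -0.61 (adjusted p = 0.00609). Actg2 differed by -0.78 (SE 0.73, adjusted p = 0.620, limma), and by -1.09 without both replicate 3 libraries (adjusted p = 0.0177), where it was called. With single libraries left out, the difference of Acta2 ran from -1.05 (without TSA replicate 3) to -0.16 (without control replicate 3), and that of Actg2 from -1.58 (without TSA replicate 3) to -0.24 (without TSA replicate 1).

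The cytoplasmic actins were lower with TSA without overlap between groups. Actb was listed at 1325, 1321 and 1411 FPKM in the control group and at 1045, 982 and 819 with TSA. Actg1 was listed at 588, 559 and 669 FPKM in the control group and at 492, 455 and 379 with TSA. These were 2 of 6 members, where 10.1% of all tested genes were lower without overlap. The log2 differences were -0.52 for Actb (SE 0.13, adjusted p = 0.0783, limma) and -0.46 for Actg1 (SE 0.13, adjusted p = 0.122), and the exact permutation test gave p = 0.1 for each, 2-sided, the smallest p that 3 libraries against 3 allow. Without both replicate 3 libraries they were -0.39 (adjusted p = 0.0125) and -0.28 (adjusted p = 0.0382), so both passed the adjusted p at less than the fold threshold. The rat Actg1 transcript is annotated with 1128 bases and the coding part of mouse Actg1 with 1125, so its FPKM rests on a shorter model than that of the other rat actins.

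Over all members, 0 of 6 were called for TSA in limma (2.13% of all genes) and 0 by limma-voom. Actb and Actg1, 2 of 6, had an unadjusted p under 0.05 in limma, as had 19.8% of all genes. By adjusted p at any fold the block gave 2 of 6, Acta1 and Acta2, where 4.62% of all genes passed. Without both replicate 3 libraries 5 of 6 passed at any fold, all but Actc1, where 17.8% of all genes did, and Actg2 alone was called (3.01% of all genes). The median log2 difference was -0.49 over the members and 0.03 over all genes. No ratio between actins could pass a test, since the smallest p is 0.1 over 3 libraries against 3 and 0.25 over 3 pairs. The smooth muscle to sarcomeric log2 ratio differed by -0.785, -0.255 and -1.30 within the numbers, a mean difference of -0.78 (exact permutation test, p = 0.1, adjusted p = 0.4). The Acta1 to Actc1 log2 ratio was higher within each number, by 0.788, 1.22 and 0.553, with a mean difference of 0.86 (exact permutation test, p = 0.3). The cytoplasmic to sarcomeric log2 ratio differed by -0.428, -0.062 and -1.52, and that of Actb to Actg1 had no single sign. Without both replicate 3 libraries the mean differences were -0.52, 1.01, -0.24 and -0.11 in this order.

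**Figure D5:**
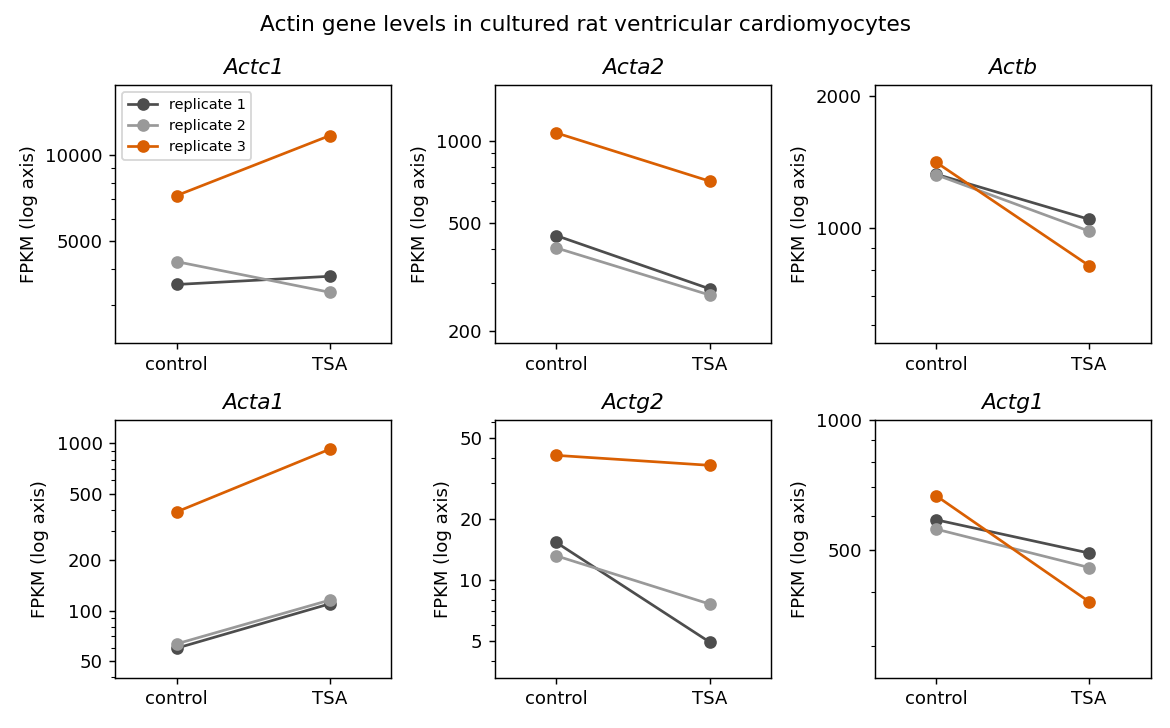
FPKM of the 6 actin genes on a log axis in the 3 control and 3 TSA rat libraries, with lines joining libraries of the same replicate number. Acta1 goes up and Acta2, Actg2, Actb and Actg1 go down along every line, while the replicate 3 libraries lie apart from the others for Acta1, Acta2 and Actg2.

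The replicate 3 libraries of both groups were higher than the others in some muscle genes, but not in all. Acta1 was listed at 389 and 923 FPKM in them, against 59.5 to 115 in the other 4. Calponin, Cnn1, was listed at 197 FPKM in both, against at most 24.5, and Tagln at 966 and 555, against 191 to 357. The embryonic myosin heavy chain Myh3 was listed at 2.66 and 6.55, against at most 0.14. The part of these libraries' composition in the TSA differences was not tested.

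Genes acting on actin filaments passed the tests for TSA about as often as all genes did. Of 59 tested genes of the 6 lists 0 were called in limma (2.13% of all genes), 13 had an unadjusted p under 0.05 (19.8%), and 3 passed the adjusted p below the fold threshold (3.78%). These were Abra, the MRTF-promoting factor (0.94, adjusted p = 0.0365, limma), the severing protein gelsolin, Gsn (0.61, adjusted p = 0.0323), and the chaperonin subunit Cct2 (0.51, adjusted p = 0.0448), all higher with TSA. Without both replicate 3 libraries they differed by 0.74, 0.56 and 0.58, and 13 of the 59 passed at any fold (17.8% of all genes) with 0 called. Abra was listed at 8.85, 6.95 and 6.96 FPKM in the control group and at 12.9, 14.8 and 19.2 with TSA. These did not overlap, and 17.1% of all tested genes were higher with TSA without overlap. Tagln was listed at 357, 309 and 966 FPKM in the control group and at 191, 192 and 555 with TSA, lower within each number as Acta2 was. Of the cell type markers only Rgs5, a pericyte marker, was called, at 5.33, 3.47 and 4.53 FPKM in the control group and 15.3, 17.5 and 20.9 with TSA (log2 difference 1.80, SE 0.18, adjusted p = 0.00694, limma). It was also called without both replicate 3 libraries (1.71, adjusted p = 0.00496, limma), as were the macrophage markers Csf1r (-1.49) and Cd68 (-1.39). The macrophage list did not move as a block. In the same fit C1qb was higher with TSA (0.67, adjusted p = 0.0323, limma), and C1qa (-0.22) and Adgre1 (-0.16) did not pass.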

How the data were processed

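The data used were 8 mouse RNA-seq, 8 mouse ATAC-seq and 6 rat RNA-seq libraries, and the 6 HiChIP libraries were not used here. Per the submitters' processing notes and the file headers, the authors aligned RNA reads with HISAT2 2.1.0 and estimated transcripts with StringTie (1.3.5 in mouse headers, 1.3.4d in rat headers), on mm10 with GENCODE M21 and on Rnor_6.0 (rn6) with Ensembl 103. The kit did not mark strand, so a gene and an overlapping antisense gene cannot be told apart. The deposited values are FPKM per transcript, TPM and coverage (mean read depth per base), and FPKM and TPM were normalised by the authors' StringTie run. For ATAC-seq the notes name Bowtie2, Picard and MACS2, and the deposited peak lists give the score, the fold enrichment and the −log10 p-value and q-value of each peak, as written by the authors' peak caller for each library.

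FPKM was summed per gene. Genes with at least 1 FPKM in at least 2 mouse or 3 rat libraries were kept, 13979 of 55450 and 13625 of 32623, and all 6 actins passed in both. Log2(FPKM + 1) was fitted with limma 3.58.1 in R 4.3.3 (trended empirical Bayes), all 8 mouse libraries in 1 model, with Benjamini-Hochberg adjustment over all tested genes. Reads per library were estimated from coverage and transcript length. Depth limits the low members most. The fit was tested on simulated data with known changes. Ratios were tested by exact permutation over libraries. In the rat, deviations from the group means correlated at r = 0.224, 0.194 and 0.346 between libraries with the same replicate number. Control replicate 2 with TSA replicate 1 (0.167) and control replicate 1 with TSA replicate 2 (0.090) were also positive. The labels give no pairing, so pairs within replicates 1 and 2 were not shown. Blocked values assume that the numbers pair the libraries. Alternatives were TPM, size factors, pseudocount 0.1, other filters, limma-voom, fits of 2 time points, the replicate block, leaving out each library and other peak windows and thresholds. Leaving out both rat replicate 3 libraries was added after seeing the data. Where an arm had 1 library left, it was assumed to vary like the other groups.

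The members, marker lists and pathway lists were chosen with earlier results of these data known, so their calls are no independent support. The genes named are the 6 members, members of the fixed lists, and for each actin the 5 genes with the highest r among genes with a mean of at least 5 FPKM. Gm12715, 0610009L18Rik and the isoforms named were chosen after their values were seen. Intervals and tests cover these libraries only.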

Additional observations from a re-analysis of the deposited data

How the results depend on the processing

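Across the alternatives, 199 results that answer a comparison were counted as staying, 7 moved and 1 reversed. Small changes in the number of called members, such as 4 to 5 or 3 to 2, were counted as staying. The rat ratios, whose p cannot fall under 0.05, could change only by reversing sign. Of values for single genes 429 stayed, 6 became calls, 13 lost a call and 4 reversed. The 2 calls at P7 against P3 became 0 with no expression filter and 1 with limma-voom or with a fit of the 2 time points alone, and 0 to 2 when single libraries were left out. Members called with TSA went from 0 to 1 without both replicate 3 libraries, and stayed at 0 when single libraries were left out. The rat cytoplasmic to sarcomeric log2 ratio, -0.67, was 0.027 without TSA replicate 3 (range -1.04 to 0.027 over libraries left out). The TSA difference of Actc1 reversed to -0.07 without control replicate 1, -0.43 without TSA replicate 3 and -0.13 without both replicate 3 libraries, and that of Acta1 to -0.016 without TSA replicate 3. Over single libraries left out these ranged from -0.43 to 0.48 for Actc1 and from -0.016 to 1.87 for Acta1. Acta2 was called at P1 and P3 against E18.5 with TPM (1.08 and 1.22) and without E18.5 replicate 2 (1.07 and 1.19), and at P3 without P3 replicate 1 (1.07). Actg2 at P7 against P1 lost its call with no expression filter (adjusted p = 0.0609, limma). TPM moved the all-gene calls at P7 against E18.5 to 3361 higher and 1576 lower, from 2155 and 1715, with members still 4 higher and 2 lower. The causes of these shifts were not tested. In the mouse the replicate numbers did not pair the libraries (r from -0.0964 to 0.171), and the replicate block gave 4, 5 and 6 members called at P1, P3 and P7 against E18.5, 0, 3 and 2 in the other comparisons, and 0 with TSA, the same counts as without it. Peak pairs were 18 within 1 kb, 31 within 5 kb, 19 at a −log10 q of at least 5 and 18 with lists of equal length, against 26. With 2 libraries per time point, depth and replication limit the low members Acta1 and Actg2 most.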
